A study of Mus musculus with 6 samples.

Results

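The chemokines and their receptors were examined in dendritic cells that had lost Map3k7. A gene was taken as a member when its only platform symbol was a numbered member of the Ccl, Cxcl, Cx3cl, Xcl, Ccr, Cxcr, Cx3cr, Xcr or Ackr families. That gave 49 genes, 32 ligands and 17 receptors, out of 17097 genes with a probe set of 1 symbol. They were measured by 72 probe sets, and 16 of the 49 had more than 1. Each gene is described by its brightest probe set on average across the arrays, and its other probe sets are given as a check. Another 2 probe sets carried a receptor symbol together with that of a different gene and were left out. The symbol rule used no expression value, but the genes described at length and the promoters shown were picked with results known.

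The knockout group was Map3k7-CreER mice on C57Bl/6, and the other group was wild-type C57Bl/6 mice. Tamoxifen, which switches on CreER, was given in vivo for 3 days to both groups, so the wild-type cells carry the effect of the drug too. CD11c-positive cells were sorted from the spleen by flow cytometry, and RNA of 3 samples in each group was hybridised to 1 Affymetrix array per sample. The labels give neither the promoter that drives CreER nor the age of the mice, so deletion in the dendritic cells, the CreER transgene and the effects of deletion elsewhere in the mouse cannot be told apart. They also do not say whether each sample came from a different mouse, so the p-values describe the spread among these samples and no more. Map3k7 encodes TAK1, a kinase that passes signals from Toll-like, TNF and interleukin-1 receptors to the NF-kappaB and MAP kinase pathways.

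Chemokines are small secreted proteins that steer leukocytes. They bind G protein-coupled receptors on the moving cell, whereas atypical receptors take chemokines up without driving migration. Inflammatory chemokines are induced by microbial and cytokine signals, many of them through NF-kappaB and interferon-activated factors, and homeostatic chemokines place lymphocytes and dendritic cells within lymphoid organs. In the spleen, dendritic cells are both a source of chemokines for T cells and NK cells and targets that use receptors such as Xcr1 and Cx3cr1.

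The values are log2 expression levels made with RMA, and array medians were 3.77 to 3.81. A mean level of 5 or more, more than 2-fold above the median probe set, is used below to separate measurable members from dim ones. A level depends on the probes as well as on the transcript, so levels are compared between groups for 1 gene and not between genes. Differences are knockout minus wild type on the log2 scale, and a gene is said to have risen or fallen only when limma's Benjamini-Hochberg adjusted p over 45037 probe sets was under 0.05. Map3k7 itself read 4.04, 4.46 and 3.64 on the knockout arrays, against 6.68, 6.69 and 6.57 on the wild-type arrays, and fell by 2.6 (SE 0.19, limma adjusted p = 0.00128). Other Map3k7 probe sets differed by -2.34 and -3.25 and also passed (limma adjusted p = 0.0181 and 0.000165). The dimmest, at means of 3.65 and 3.54, differed by -0.19 and -0.65 and did not pass (limma adjusted p = 0.65 and 0.239). Whether the Map3k7 probes sit in the exons that Cre removes was not analysed here. Arrays correlated at 0.989 to 0.994 within groups and 0.978 to 0.992 between groups.

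The 250 bases before the start of 6 ligand genes are shown because these genes form 3 neighbouring pairs, and the results below turn on them. The Cxcl9 and Cxcl10 pair moved one way, the Ccl6 and Ccl9 pair had positive differences, and the Ccl17 and Ccl22 pair had differences of opposite sign. The sequences are RefSeq's for GRCm38.p6, printed 5′ to 3′ on the strand of the gene, and the build behind the array is not given in the sources used here. Capitals mark matches on either strand to a kappaB pattern (GGGANNNNCC), an interferon-response pattern (TTTCNNTTTC, with TTTCNNTT as its core) or the AP-1 site (TGANTCA). Cxcl9 lies at chr5:92328080-92328329 on the minus strand and Cxcl10 at chr5:92348890-92349139 on the minus strand. Ccl6 lies at chr11:83593088-83593337 and Ccl9 at chr11:83578637-83578886, both on the minus strand. Ccl17 lies at chr8:94810203-94810452 and Ccl22 at chr8:94745434-94745683, both on the plus strand.
Cxcl9: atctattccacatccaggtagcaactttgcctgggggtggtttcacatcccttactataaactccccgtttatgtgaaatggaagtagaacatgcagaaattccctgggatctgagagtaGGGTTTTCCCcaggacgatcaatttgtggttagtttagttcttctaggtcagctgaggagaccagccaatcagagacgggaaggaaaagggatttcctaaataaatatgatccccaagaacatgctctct
Cxcl10: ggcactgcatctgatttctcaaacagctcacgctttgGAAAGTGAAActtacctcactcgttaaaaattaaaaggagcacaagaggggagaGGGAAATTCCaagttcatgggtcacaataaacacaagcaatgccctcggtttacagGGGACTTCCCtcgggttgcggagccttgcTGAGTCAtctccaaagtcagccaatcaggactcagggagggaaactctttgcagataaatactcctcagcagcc
Ccl6: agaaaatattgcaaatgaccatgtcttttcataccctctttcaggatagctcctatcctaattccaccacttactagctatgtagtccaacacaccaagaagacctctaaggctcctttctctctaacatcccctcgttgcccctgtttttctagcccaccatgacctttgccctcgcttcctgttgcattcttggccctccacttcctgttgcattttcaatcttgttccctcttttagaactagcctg
Ccl9: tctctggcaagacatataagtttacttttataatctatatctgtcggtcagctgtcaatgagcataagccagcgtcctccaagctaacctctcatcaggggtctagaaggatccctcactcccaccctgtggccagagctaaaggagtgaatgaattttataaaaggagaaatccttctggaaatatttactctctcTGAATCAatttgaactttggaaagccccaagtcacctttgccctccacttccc
Ccl17: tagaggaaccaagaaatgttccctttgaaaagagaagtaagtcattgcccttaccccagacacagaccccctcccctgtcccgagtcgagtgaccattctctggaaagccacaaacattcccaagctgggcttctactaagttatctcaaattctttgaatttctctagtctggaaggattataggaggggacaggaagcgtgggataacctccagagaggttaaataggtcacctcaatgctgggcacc
Ccl22: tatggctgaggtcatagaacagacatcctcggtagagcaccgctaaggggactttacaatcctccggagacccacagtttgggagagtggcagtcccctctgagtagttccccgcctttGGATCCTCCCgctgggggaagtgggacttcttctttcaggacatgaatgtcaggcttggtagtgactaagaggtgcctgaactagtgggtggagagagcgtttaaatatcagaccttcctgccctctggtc

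The Cxcl10 window held kappaB matches at 159 to 150 and 103 to 94 bases before the start, an interferon-response match at 213 to 204 and an AP-1 match at 74 to 68. The Cxcl9 window held 1 kappaB match, at 130 to 121, and the Ccl22 window 1, at 131 to 122. The Ccl9 window held an AP-1 match at 53 to 47. None of the patterns occurred in the Ccl6 and Ccl17 windows. The kappaB pattern also occurred in windows not shown, among them Ccr1 (74 to 65), Cxcl1 (90 to 81) and Cxcl2 (97 to 88). Those genes had positive differences (2.45, 0.28 and 0.49). Ccl19 and Ccl20, with kappaB matches too, had negative ones (-0.50 and -0.22). The windows shown therefore tie no pattern to a direction. Of 39 windows found for 37 member genes, 15 (38.5%) held the kappaB pattern, against 17.6% of all 32851 RefSeq windows. The interferon-response core was in 28.2% of the member windows and 21.3% of all windows, its longer form in 7.69% and 2.98%, and the AP-1 site in 10.3% and 6.75%. A match is only a description of the letters, and a window without one says nothing of the factor.

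The first question was how many of these genes differed between the knockout and wild-type groups. Of the 49 members, 4 passed the test: Ccl6 and Ccr1 rose, and Cxcl9 and Cxcl10 fell. By kind, 1 of 32 ligands rose, 2 fell and 29 did not pass, and 1 of 17 receptors rose, 0 fell and 16 did not pass (limma). Across all 17097 genes 1.08% rose and 0.591% fell. The ligands that fell, the ligands that rose and the receptors that rose were each a larger share than in the whole array. Those shares rest on 2 genes, 1 gene and 1 gene, and no direction for the family is read from them. At an unadjusted p under 0.05 there were 15 members, 11 ligands and 4 receptors, among 2805 of all genes. Differences were negative for 21 of the 32 ligands and 5 of the 17 receptors. The median difference was -0.08 for ligands, 0.03 for receptors and -0.02 for all genes.

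**Figure D1:**
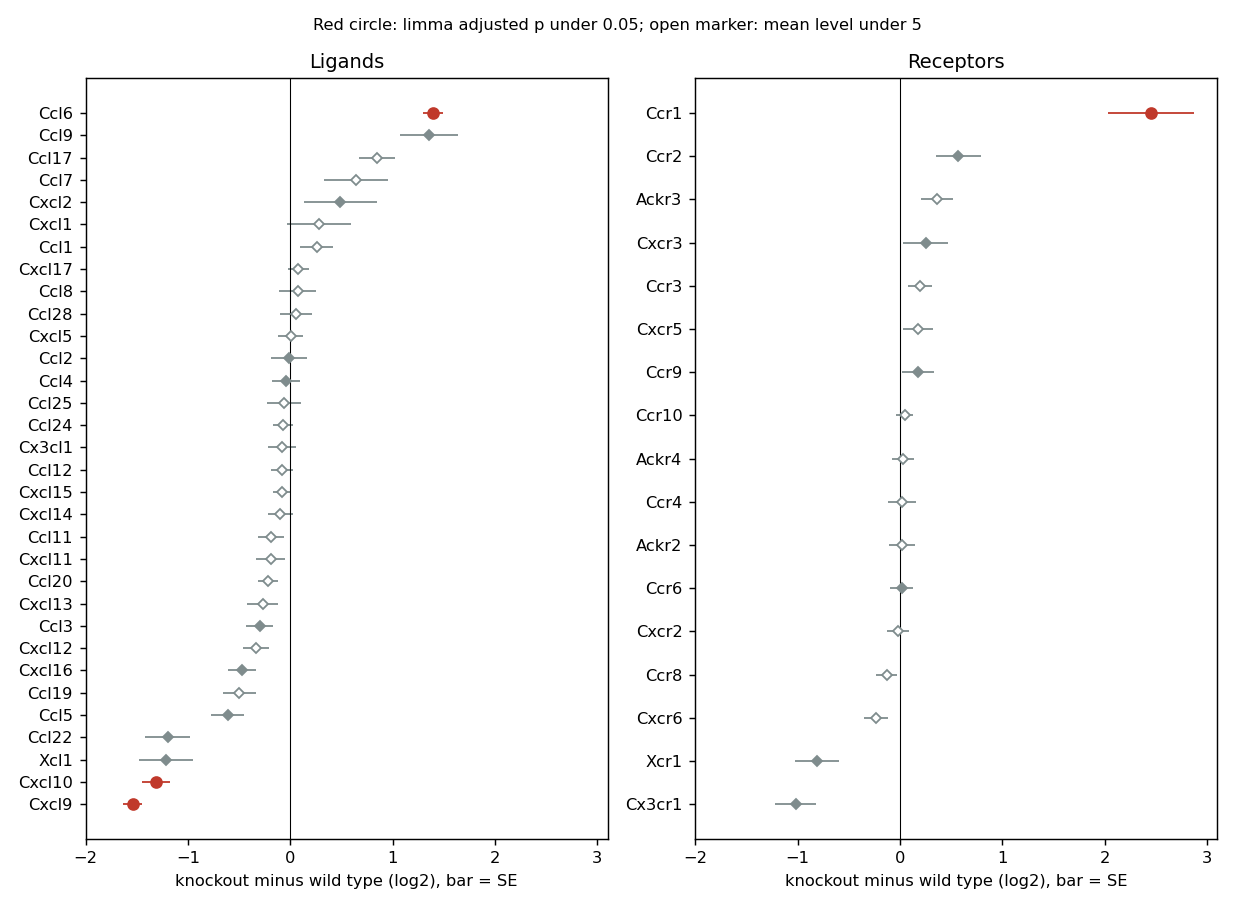
Knockout minus wild type on the log2 scale for each of the 32 ligands (left) and 17 receptors (right), sorted by the difference. Bars are standard errors from limma over 3 arrays in each group, red circles mark an adjusted p under 0.05, and open markers have a mean level under 5. Ccl6 and Ccr1 lie on the positive side among the red circles, Cxcl9 and Cxcl10 on the negative side.

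A mean level of 5 or more was reached by 12 ligands and 7 receptors. Among these 19 members the 3 knockout arrays all lay above the 3 wild-type arrays for 2 ligands and 1 receptor, and all below them for 6 ligands and 2 receptors. In all 7460 genes at that level the shares were 17.3% above and 14.4% below. Of the same 7460 genes 2.28% rose and 1.11% fell. Ccr1 is the 1 receptor counted above, and it reached level 5 only through its knockout arrays (7.16 ± 0.88 in knockout cells and 4.70 ± 0.48 in wild-type cells, SD, n = 3 each), so its place in these counts follows from its own difference. The median difference was -0.39 for the 12 ligands and 0.17 for the 7 receptors, against -0.01 for all genes at that level. The 30 members under level 5 had differences between -0.50 and 0.85, and none of them passed. For such dim probe sets a difference in transcript is understated, and the values do not show that the genes were unaffected.

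**Figure D2:**
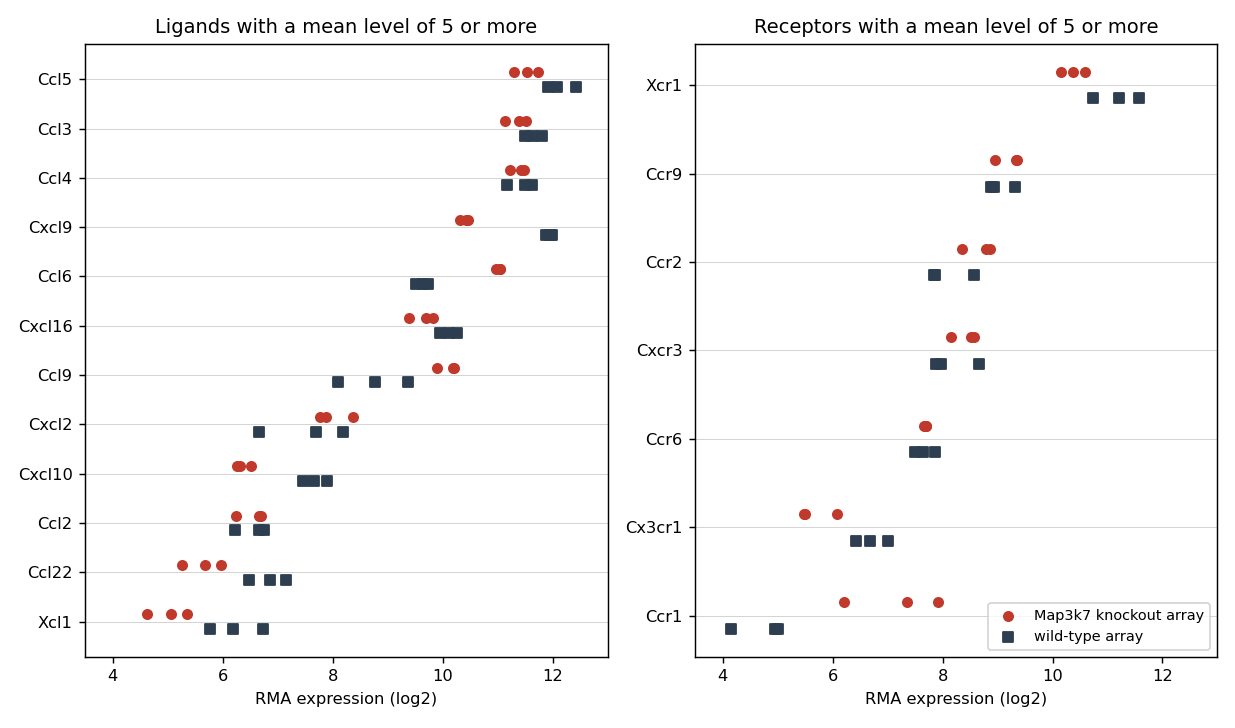
RMA expression (log2) of the 12 ligands (left) and 7 receptors (right) with a mean level of 5 or more. Each red circle is 1 of 3 knockout arrays and each dark square 1 of 3 wild-type arrays. For Cxcl9, Cxcl10 and Ccl6 the groups stand apart with little spread, whereas the 3 knockout arrays of Ccr1 spread from 6.20 to 7.92.

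Cxcl9 and Cxcl10 are the interferon-induced ligands of Cxcr3, which draw activated T cells and NK cells, and both fell. Cxcl9 read 10.31, 10.47 and 10.43 on the knockout arrays, against 11.99, 11.88 and 11.95 on the wild-type arrays. The groups were separated by more than 1 log2 unit, and Cxcl9 was 2.90-fold lower in knockout cells (difference -1.54, SE 0.09, limma adjusted p = 0.000492). Cxcl10 read 6.31, 6.27 and 6.51 in knockout cells, against 7.90, 7.66 and 7.46 in wild-type cells. It was 2.48-fold lower (difference -1.31, SE 0.13, limma adjusted p = 0.00611), and again no array of one group reached the other. These 2 genes start 20.8 kb apart on chromosome 5. In RNA from a sorted population, fewer cells of a type and less RNA per cell cannot be told apart.

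Cxcl11, the remaining Cxcr3 ligand, was dim in both groups, at 3.42 ± 0.28 in knockout cells and 3.61 ± 0.06 in wild-type cells (SD, n = 3 each, limma adjusted p = 0.696). The receptor Cxcr3 averaged 8.41 ± 0.24 in knockout cells and 8.16 ± 0.43 in wild-type cells (SD, n = 3 each). Its groups overlapped and its difference of 0.25 did not pass (SE 0.22, limma adjusted p = 0.748). The pair of called ligands thus had a receptor transcript for which no difference was detected in the same cells.

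Ccl6 and Ccl9 are mouse CC chemokines that bind Ccr1 and attract myeloid cells, and Ccr1 is the receptor on monocytes, neutrophils and other myeloid cells that also takes Ccl3, Ccl5 and Ccl7. Ccl6 read 11.04, 10.98 and 11.05 in knockout cells, against 9.73, 9.51 and 9.65 in wild-type cells. The knockout arrays were close together (SD 0.04), well above the wild-type arrays (SD 0.11), and Ccl6 rose 2.62-fold (difference 1.39, SE 0.10, limma adjusted p = 0.00103). Ccl9, whose start lies 14.5 kb from that of Ccl6 on chromosome 11, read 10.21, 9.89 and 10.19 in knockout cells, against 8.77, 8.09 and 9.36 in wild-type cells. The groups did not overlap, but the wild-type arrays spread widely (SD 0.64), and the difference of 1.36 missed the threshold (SE 0.29, limma adjusted p = 0.0765). The other Ccl9 probe set rose by 1.52 (SE 0.27, limma adjusted p = 0.0460). Without wild-type array 3, the highest of its group, the first Ccl9 probe set also passed (limma adjusted p = 0.0233). In the other fits with an array left out that probe set did not pass (limma adjusted p = 0.127 to 0.221).

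Ccr1 had the largest difference of the 49 members. It read 6.20, 7.92 and 7.35 in knockout cells, against 5.01, 4.15 and 4.95 in wild-type cells. All knockout arrays lay above all wild-type arrays, and Ccr1 rose by 2.45 (SE 0.42, limma adjusted p = 0.0412). The wild-type arrays were dim, so this is a difference in signal that may understate the one in transcript, and no fold is given. The call depended on single arrays. It was lost without knockout array 2 (adjusted p = 0.141), knockout array 3 (0.109), or wild-type array 1 (0.127), 2 (0.149) or 3 (0.0835), and it held without knockout array 1 (0.00698). A second, dim Ccr1 probe set differed by 0.52 (SE 0.22, limma adjusted p = 0.399), with the knockout arrays again all above the wild-type arrays. As the mean of both probe sets the Ccr1 difference was 1.49 (limma adjusted p = 0.0491).

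**Figure D3:**
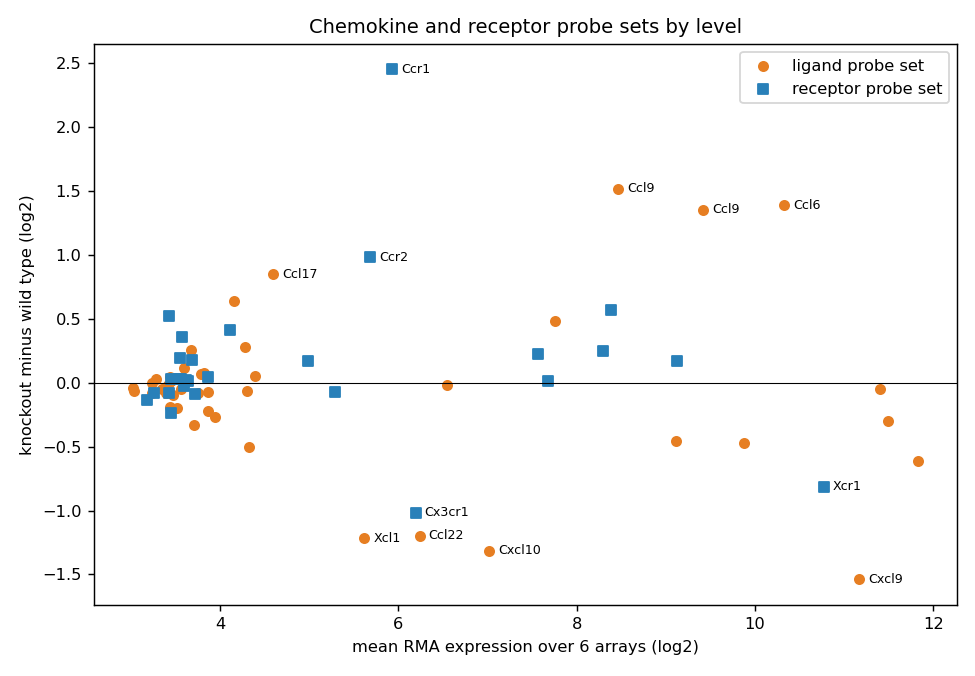
Knockout minus wild type (log2) against the mean RMA expression over 6 arrays (log2) for all 72 chemokine and receptor probe sets, ligands as circles and receptors as squares. Names mark probe sets whose difference exceeds 0.7 in size. Both Ccl9 probe sets lie near Ccl6 at 1.36 and 1.52, and most probe sets of low level lie near 0.

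The means of the macrophage, monocyte and neutrophil marker lists differed in the same direction as Ccl6, Ccl9 and Ccr1. The list of eosinophil, basophil or mast cell markers did not. It overlapped, at 3.33 to 3.43 in knockout cells and 3.25 to 3.40 in wild-type cells. In that list 2 of 6 differences were positive, and 6 of 6 genes had means under 5. The mean of 12 macrophage markers was 6.68 to 7.18 on the knockout arrays and 6.32 to 6.48 on the wild-type arrays. Of these 12, Cd163, Cd5l and Mertk rose, 11 differences were positive, and the median difference was 0.49. Adgre1, which encodes the macrophage antigen F4/80, differed by -0.28 (limma adjusted p = 0.463), and Spic by 0.005. Of the 12, 4 had means under 5. These were Marco (3.76), Siglec1 (3.87) and the called Cd163 (4.59) and Mertk (4.94). The 4 measured monocyte markers averaged 6.33 to 6.77 in knockout cells and 5.99 to 6.26 in wild-type cells, with 0 of 4 past the threshold. Of these, 3 had means under 5. The 7 measured neutrophil markers averaged 4.64 to 5.55 in knockout cells and 4.23 to 4.52 in wild-type cells, with 0 of 7 past the threshold. Of the 7, 5 had means under 5. S100a8, a neutrophil and monocyte calgranulin, differed by 2.28 (limma adjusted p = 0.147), whereas the granule genes Elane, Mpo and Camp had means of 3.55 to 3.62. Itgam, which encodes CD11b and is on the list of CD11b-positive dendritic cell markers, rose by 1.31 (limma adjusted p = 0.0466). The other measured markers of that list differed by -1.10 (Esam), -0.21 (Sirpa) and 0.20 (Cd209a). Its list means overlapped, at 8.40 to 8.71 in knockout cells and 8.36 to 8.62 in wild-type cells. The part of these cell types in the Ccl6, Ccl9 and Ccr1 differences was not tested.

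**Figure D4:**
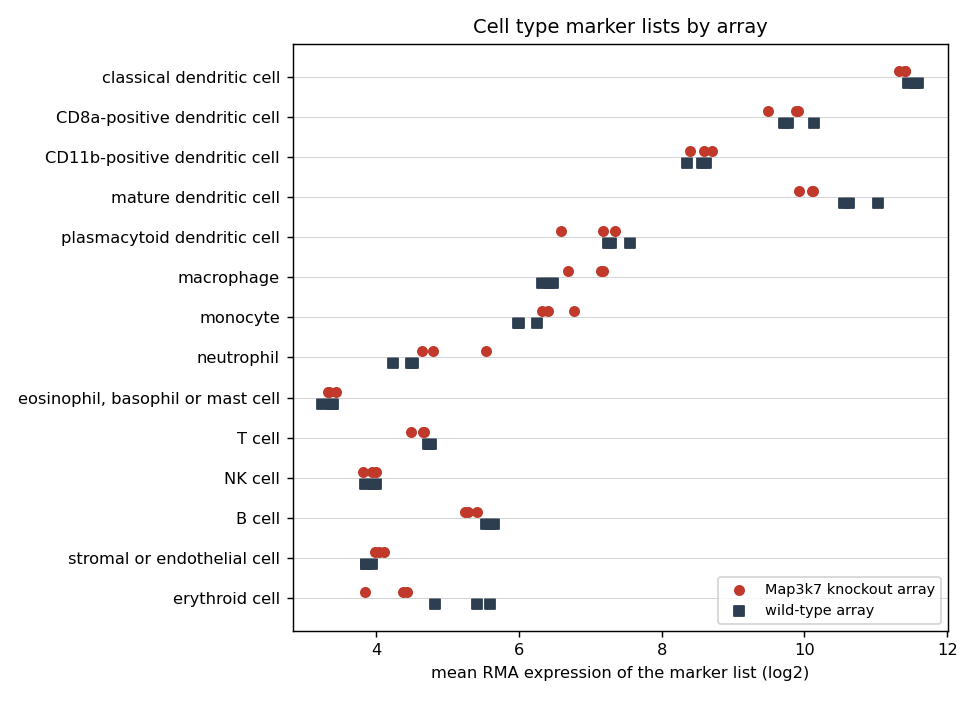
Mean RMA expression (log2) of 14 cell type marker lists on each of the 3 knockout arrays (red circles) and 3 wild-type arrays (dark squares). Macrophage, monocyte, neutrophil and stromal or endothelial lists lie higher on every knockout array than on any wild-type array. The classical and mature dendritic cell, B cell, T cell and erythroid lists lie lower. The classical dendritic cell list had a median difference of -0.055, with 2 of 7 positive. In the erythroid list 3 of 4 genes had means under 5, and Hba-a1 differed by -3.57. Means under 5 were also found for 3 of 5 T cell and 2 of 5 B cell markers. In the stromal or endothelial list 2 of 7 differences were positive (Pecam1 and Cdh5), with a median of -0.035, and 6 of 7 genes had means under 5.

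Ccl17 and Ccl22 are the ligands of Ccr4, made by dendritic cells to attract regulatory and type 2 helper T cells, and their differences had opposite signs. Ccl22 read 5.98, 5.68 and 5.26 in knockout cells, against 6.49, 6.87 and 7.15 in wild-type cells. Every knockout array was below every wild-type array, and the difference of -1.20 narrowly missed the threshold (SE 0.22, limma adjusted p = 0.0522). It passed without knockout array 1 (limma adjusted p = 0.0326). In the other fits with an array left out it did not (limma adjusted p = 0.0816 to 0.193). Ccl17 read 5.32, 5.02 and 4.71 in knockout cells, against 4.01, 4.06 and 4.43 in wild-type cells. Its mean level was under 5. Here every knockout array was above every wild-type array, and the difference of 0.85 did not pass (SE 0.18, limma adjusted p = 0.0750). The genes start 64.8 kb apart on chromosome 8.

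Within arrays the contrast between these neighbours was steadier than either gene. Ccl17 minus Ccl22 was -0.66, -0.66 and -0.55 on the knockout arrays, with a mean of -0.62 ± 0.06 (SD), against -2.47, -2.81 and -2.73 on the wild-type arrays, with a mean of -2.67 ± 0.17 (SD). The difference between the groups was 2.05, with a 2-sided exact permutation p of 0.1, the smallest that 3 against 3 arrays allow. Each gene alone already separated the groups, in opposite directions, so this p was fixed in advance and adds no support. This contrast was chosen after the values of both genes were seen, and only its change between groups is interpretable, since the 2 probe sets have no common scale. Ccr4, their receptor on T cells, was dim in both groups (3.63 ± 0.25 in knockout cells and 3.61 ± 0.06 in wild-type cells, SD, n = 3 each). The mean of 6 mature dendritic cell markers was 9.92 to 10.12 in knockout cells and 10.55 to 11.03 in wild-type cells. Relb, which is also on the list of transcription factors below, fell among these 6 and none had a positive difference. Il4i1, Socs2 and Fscn1 differed by -1.25, -1.04 and -0.49 without passing. Cd83 and Cd86 overlapped between the groups, with differences of -0.11 and -0.003 (limma adjusted p = 0.79 and 0.996). The part of dendritic cell maturation in the Ccl22 and Ccl17 differences was not tested.

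Ccl3, Ccl4 and Ccl5 attract T cells, NK cells and monocytes and are made by activated dendritic cells. Ccl5 read 11.54, 11.30 and 11.73 in knockout cells, against 11.91, 12.07 and 12.43 in wild-type cells. All knockout arrays were lower, but the difference of -0.61 did not pass (SE 0.16, limma adjusted p = 0.15). Ccl3 overlapped between groups, at 11.35 ± 0.19 in knockout cells and 11.64 ± 0.16 in wild-type cells (SD, n = 3 each), with a difference of -0.30 (SE 0.13, limma adjusted p = 0.424). Ccl4 was 11.38 ± 0.13 in knockout cells and 11.43 ± 0.23 in wild-type cells (SD, n = 3 each), a difference of -0.05 (SE 0.14, limma adjusted p = 0.941). Its sign turned without knockout array 1 (0.027) and without wild-type array 3 (0.049). The ligands of this trio thus did not pass, unlike Cxcl9 and Cxcl10. The sizes of these differences were not compared by a test.

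Cxcl16, a membrane-bound ligand of Cxcr6, read 9.38, 9.69 and 9.83 in knockout cells, against 9.96, 10.25 and 10.12 in wild-type cells. Its groups did not overlap, and its probe sets differed by -0.47 and -0.46, neither past the threshold (limma adjusted p = 0.192 and 0.165). Cxcl2, a neutrophil attractant that acts through Cxcr2, read 7.87, 8.37 and 7.76 in knockout cells, against 8.19, 6.67 and 7.69 in wild-type cells. Its groups overlapped (difference 0.49, SE 0.36, limma adjusted p = 0.691). Ccl2, the monocyte attractant that binds Ccr2, was 6.53 ± 0.25 in knockout cells and 6.55 ± 0.28 in wild-type cells (SD, n = 3 each), with a difference of -0.01 (limma adjusted p = 0.989) whose sign turned with further centring of the arrays (0.0013). Ccl7, also a Ccr2 and Ccr1 ligand, was dim except on knockout array 3, with 3.82, 4.34 and 5.27 in knockout cells and 3.89, 3.86 and 3.76 in wild-type cells (difference 0.64, limma adjusted p = 0.483).

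By the class of ligand, 2 of 15 inflammatory ligands fell and 0 rose, with a median difference of -0.08. None of 10 homeostatic ligands passed at the adjusted threshold in limma, with 4 of 10 at an unadjusted p under 0.05 and a median of -0.09. Of these 10, 9 had a mean level under 5, as had 7 of the 15 inflammatory ligands. Across all 17097 genes 1.08% rose, 0.591% fell and 2805 had an unadjusted p under 0.05, and nothing particular to the classes is read from their counts. Ccl19, a homeostatic ligand, guides T cells and dendritic cells into T cell zones. It averaged 4.08 ± 0.03 in knockout cells and 4.58 ± 0.33 in wild-type cells (SD, n = 3 each). The Ccl19 difference was -0.50 (SE 0.16, limma adjusted p = 0.235). Cxcl12, which retains leukocytes in bone marrow, averaged 3.54 ± 0.09 in knockout cells and 3.87 ± 0.21 in wild-type cells (SD, n = 3 each). Its difference of -0.33 did not pass (limma adjusted p = 0.319), and its other 2 probe sets differed by -0.05 and 0.02. The eosinophil attractants Ccl11 and Ccl24, classed with Ccl6 and Ccl9, were dim, with differences of -0.19 and -0.07.

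Xcl1 and Xcr1 form a ligand and receptor pair in which Xcl1, made by NK cells and CD8 T cells, draws the Xcr1-bearing dendritic cells that present antigen from dead cells. Xcl1 read 5.35, 5.07 and 4.62 in knockout cells, against 5.77, 6.19 and 6.73 in wild-type cells. The groups did not overlap, and the difference of -1.22 missed the threshold (SE 0.26, limma adjusted p = 0.0817). Xcr1 read 10.36, 10.58 and 10.15 in knockout cells, against 11.22, 11.57 and 10.74 in wild-type cells. Its difference of -0.81 did not pass either (SE 0.21, limma adjusted p = 0.140), although each knockout array was below each wild-type array. NK cell markers were near the array median and overlapped, at means of 3.82 to 3.99 in knockout cells and 3.84 to 4.0 in wild-type cells. The 5 measured T cell markers averaged 4.49 to 4.67 in knockout cells and 4.72 to 4.76 in wild-type cells, lower on every knockout array, with 0 of 5 past the threshold and 4 of 5 differences negative. Of these T cell markers, 3 of 5 had means under 5. The part of T cells in the Xcl1 difference was not tested. The 5 measured markers of CD8a-positive dendritic cells averaged 9.49 to 9.91 in knockout cells and 9.72 to 10.13 in wild-type cells. Of these, Itgae was higher past the threshold, and it was the 1 positive difference of 5. The median difference was -0.21, with Cd8a at -1.47 (limma adjusted p = 0.0620). The part of this dendritic cell type in the Xcr1 difference was not tested.

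Cx3cr1, the receptor for membrane-bound Cx3cl1 on monocytes and some dendritic cells, read 6.07, 5.50 and 5.48 in knockout cells, against 6.68, 6.42 and 7.0 in wild-type cells. All knockout arrays were lower, with a difference of -1.02 that missed the threshold (SE 0.20, limma adjusted p = 0.0654). It passed without knockout array 1 (limma adjusted p = 0.0235). In the other fits with an array left out it did not (limma adjusted p = 0.109 to 0.235). Its second probe set was dim and differed by -0.09, and Cx3cl1 was dim in both groups (-0.08). Ccr2, which releases monocytes from bone marrow, had 4 probe sets with positive differences. The first read 8.78, 8.85 and 8.36 in knockout cells, against 8.57, 7.87 and 7.85 in wild-type cells. Its groups overlapped (difference 0.57, SE 0.22, limma adjusted p = 0.332), whereas the second, with a difference of 0.98, separated them without passing (limma adjusted p = 0.0837).

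The other measurable receptors overlapped between the groups. Ccr9, a gut-homing receptor also carried by plasmacytoid dendritic cells, was 9.22 ± 0.22 in knockout cells and 9.04 ± 0.24 in wild-type cells (SD, n = 3 each, limma adjusted p = 0.761). Its first probe set is of a type that can match several transcripts, and its other 3 differed by 0.22, -0.07 and 0.03. Ccr6, the receptor for Ccl20 on lymphocytes and dendritic cells, was 7.68 ± 0.02 in knockout cells and 7.67 ± 0.19 in wild-type cells (SD, n = 3 each). Its difference of 0.01 (limma adjusted p = 0.982) became -0.075 without wild-type array 3. The 3 atypical receptors were dim, at means of 3.54 to 3.64, with differences of 0.36 for Ackr3, 0.03 for Ackr4 and 0.02 for Ackr2. Of the receptors that the naming rule listed, 3 have no probe set with 1 symbol among those used and are not analysed here.

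Set side by side, the difference of a receptor and of its ligands in the same cells took several forms. For Ccr1 the receptor rose, Ccl6 rose, Ccl9 differed by 1.36 and Ccl7 by 0.64, while Ccl5 and Ccl3 had negative differences that did not pass. For Cxcr3 the receptor differed by 0.25 and Cxcl9 and Cxcl10 fell. For Xcr1 the receptor and its ligand both had negative differences short of the threshold. For Ccr4 the ligands lay on opposite sides of 0 at a receptor difference of 0.02.

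**Figure D5:**
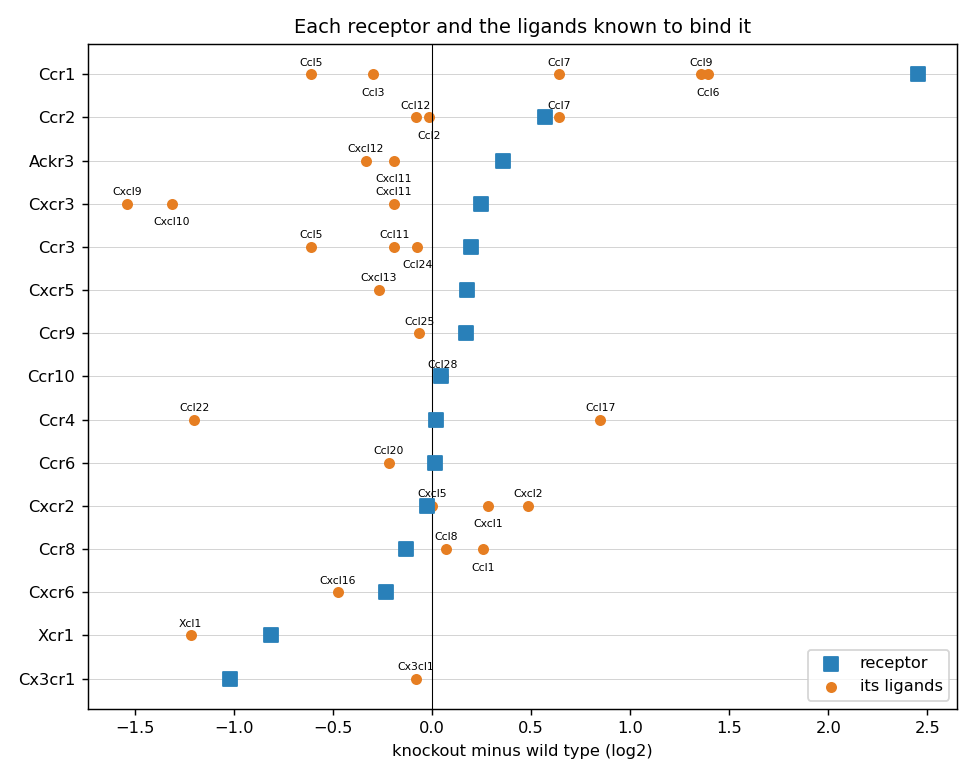
Knockout minus wild type (log2) for each receptor (blue square) and the ligands known to bind it (orange circles), receptors sorted by their difference, each point 1 gene from 3 knockout and 3 wild-type arrays. The Ccr1 row has the receptor at 2.45 and ligands on both sides of 0, and the Cxcr3 row has the receptor at 0.25 with Cxcl9 at -1.54 and Cxcl10 at -1.31.

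Genes that act around the chemokines were then read from lists of known pathway members. A mean level of 5 or more was reached by 23 of 23 transcription factors, 25 of 27 inducers, 19 of 21 G protein genes and 23 of 23 motility genes. Of all genes at that level 2.28% rose and 1.11% fell, and nothing particular to a list is read from a count of 1 gene. Of 23 transcription factors with known sites in chemokine promoters, 1 rose and 1 fell, and the median difference was -0.06. Relb, a subunit of the non-canonical NF-kappaB pathway, read 9.15, 8.95 and 9.27 in knockout cells, against 10.12, 10.27 and 10.64 in wild-type cells, and fell by 1.22 (SE 0.15, limma adjusted p = 0.0125). It lost the call without knockout array 2 (limma adjusted p = 0.0792) and without wild-type array 2 (0.0567). Cebpb, a leucine zipper factor of myeloid cells, read 10.07, 10.40 and 10.47 in knockout cells, against 9.38, 8.91 and 9.45 in wild-type cells, and rose by 1.06 (SE 0.17, limma adjusted p = 0.0340). Its call was lost without knockout array 2 (limma adjusted p = 0.164) or 3 (0.0899), or wild-type array 1 (0.111) or 2 (0.0787).

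Of 27 receptors and kinases that induce chemokines, 1 rose, 0 fell and the median difference was 0.17. That gene was Myd88, the adaptor of Toll-like and interleukin-1 receptors, with 9.42, 10.05 and 10.16 in knockout cells, against 8.88, 8.82 and 8.64 in wild-type cells (difference 1.1, SE 0.19, limma adjusted p = 0.0436). It passed in 1 of 6 fits with an array left out, the one without knockout array 1 (limma adjusted p = 0.00539), and in the others the adjusted p was 0.0995 to 0.192. Ifngr1, a chain of the interferon-gamma receptor that induces Cxcl9, averaged 11.32 ± 0.12 in knockout cells and 10.86 ± 0.11 in wild-type cells (SD, n = 3 each), a difference of 0.46 short of the threshold (limma adjusted p = 0.106).

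Downstream of the receptors, 0 of 21 genes of G protein signalling passed in limma, with 8 of 21 at an unadjusted p under 0.05 and a median difference of -0.05, beside 2805 of all 17097 genes at that unadjusted p. The smallest p values there were those of Gng2, a G protein gamma subunit (0.73, limma adjusted p = 0.0654), and Rgs14, which speeds the turning off of G proteins (0.44, limma adjusted p = 0.133). The Gng2 result depended on the probe set: the one with the smallest p rose by 1.20 (limma adjusted p = 0.00297) and the mean of its probe sets by 1.22 (limma adjusted p = 0.00407). On its brightest probe set Gng2 also passed with array weights, an intensity trend or the replicate block (limma adjusted p = 0.0373, 0.0481 and 0.0294), and in 0 of 6 fits with an array left out. Of 23 genes of the motility machinery 1 fell and 0 rose, with a median of -0.01. It was Itgal, the alpha chain of the integrin LFA-1, with 9.56, 9.42 and 9.58 in knockout cells, against 10.09, 10.01 and 10.25 in wild-type cells (difference -0.60, SE 0.10, limma adjusted p = 0.0429). Itgal passed in 0 of 6 fits with an array left out, at adjusted p between 0.0693 and 0.184, and not as the mean of its probe sets (-0.42, limma adjusted p = 0.128). Pik3r5, the regulator of the phosphoinositide 3-kinase that chemokine receptors use, differed by 0.51 (limma adjusted p = 0.123). A further list held 12 measured genes outside the symbol rule, some of the chemokine family and others only related to it. A mean level of 5 or more was reached by 5 of these 12. In limma 0 of the 12 passed and 2 had an unadjusted p under 0.05, a share close to that of all genes. These were Gpr35 (0.70, limma adjusted p = 0.212) and Ccrl2, an atypical receptor of chemerin (0.31, limma adjusted p = 0.239).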

How the data were processed

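RNA from flow-sorted splenic CD11c-positive cells was measured on 6 Affymetrix arrays. Per the submitters' processing notes, the authors made the deposited log2 expression levels by RMA with Affymetrix Expression Console 1.1. RMA subtracts background, sets all arrays to 1 distribution and combines the probes of a set, and it leaves no detection call. Precision is limited by the number of arrays.

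Of 45141 probe sets, 104 controls were left out. Differences (knockout minus wild type) were fitted with limma 3.58.1 in R 4.3.3 (lmFit, eBayes, no covariates) on 45037 probe sets with Benjamini-Hochberg adjustment. Gene symbols came from the platform annotation. The limma step was tested on simulated data. The sample titles give replicate numbers but do not say whether same-numbered samples belong together, and the main fit has no pairing. Deviations of same-numbered arrays from their group means correlated at 0.05, 0.13 and 0.32, which does not settle the question.

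The members, gene lists, marker lists and tests were chosen with earlier results of these data known. Named members were those past the threshold, the 3 brightest and 3 smallest-p ligands and receptors, and a list of genes known in dendritic cells. From each other list they were the members past the threshold and the 2 with the smallest p. The remaining ones were named to complete a class or pair, after their values were seen. The 14 marker lists are given by their means. Alternatives were array weights, an intensity trend, robust variances, further centring or quantile normalization, probe set choices, a replicate block, other thresholds and leaving out each array. Figures were drawn with matplotlib 3.10.9.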

Additional observations from a re-analysis of the deposited data

How the results depend on the processing

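Ccl6, Cxcl9 and Cxcl10 passed under all 16 alternatives run for each, and Ccr1 passed in 11 of 16. The count of ligands that rose, 1, became 3 with array weights, 3 with probe sets averaged per gene, 3 at an adjusted p under 0.1, 2 with an intensity trend and 2 with the smallest-p probe set, and was 1 to 2 with an array left out. The count of ligands that fell, 2, became 4 at an adjusted p under 0.1, and 3, with Ccl22 added, with an intensity trend, with probe sets averaged per gene and with only the brighter probe sets tested. It was 2 to 3 with an array left out. Receptors that rose, 1, became 0 at an adjusted p under 0.01 and 0 to 1 with an array left out. Receptors that fell, 0, became 1 with array weights, 1 at an adjusted p under 0.1 and 0 to 1 with an array left out. Whether the replicate number marks a pairing is not known. With it as a block, 2 ligands and no further receptor beyond Ccr1 rose, and 2 receptors fell (Cx3cr1 and Xcr1). In that fit 993 of all probe sets passed in place of 538. Over all probe sets 1156 passed at an adjusted p under 0.1, 134 at under 0.01, and 125 to 860 with an array left out. Signs turned for Ccl2 with further centring (0.0013) and, with an array left out, for Ccl2 (-0.18 to 0.13), Ccl4 (-0.17 to 0.049) and Ccr6 (-0.075 to 0.11). The causes were not tested. Members near the array median are limited by signal over background.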
